A study of Mus musculus with 6 samples.

Results

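The ubiquitin-specific proteases (Usp genes) were followed across RNA brought down from mouse testis by an antibody against MVH, RNA brought down by normal rabbit IgG, and total RNA. Members were all genes whose platform symbol, or the current symbol to which it was updated, begins with Usp and a digit. This gave 52 of the 16390 named genes on the array, measured by 55 probes. Of these genes, 49 matched by the platform symbol and 3, Usp17la, Usp17lb and Usp17lc, by their current symbol only (they are listed as Dub1, Dub1a and Dub2). Pan2, listed as Usp52, is counted as a member, and so is Usp6nl, which has a Usp name but encodes a GTPase-activating protein of the Rab pathway. Where a gene had 2 probes, the brighter one gave its main value. Usp9y, Usp27x, Usp51, Usp17ld and Usp17le had no named probe and were not analysed here.

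MVH, also known as DDX4, is an RNA helicase of germ cells. All 6 arrays carried RNA from testis of C57/BL6 mice. The labels name no altered allele and no treatment in any group, and they give no age. Each lysate was made from the dispersed cells of a pair of testes, cleared by centrifugation, pre-incubated with protein A beads, and portions were then incubated with the antibody against MVH or with the control IgG. The third group, labelled WCE, is total RNA with no antibody step. Each group has 2 arrays, numbered 1 and 2. Whether these were different animals is not stated, so the p-values cover only the variation among these arrays, and that may be technical. Whole testis holds germ cells of every stage together with Leydig, Sertoli, peritubular and blood cells. In total RNA, fewer cells of a type and less RNA per cell therefore cannot be told apart. A difference between the precipitates concerns the RNA recovered and does not by itself measure either.

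Ubiquitin is a small protein that is joined to other proteins, singly or in chains, and marks them for the proteasome or changes where they go and what they bind. E1, E2 and E3 enzymes attach it, and deubiquitinases take it off again. Ubiquitin-specific proteases are the largest family of deubiquitinases and cut with a cysteine in their active centre. In the testis ubiquitin is best known for the removal of histones and organelles as spermatids elongate, for the sex chromosomes in meiosis and for the building of the acrosome. The measurements here concern the mRNAs of these enzymes and not the proteins.

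Intensities are given scaled to an array median of 30, which raises IgG 2, deposited with a median of 20.8, and leaves the other arrays as they were. They belong to 1 probe each, so they rank arrays for a gene and do not rank genes. The lower quartile of all probes was 9.10 on this scale, and 11 of the 52 members had a mean below it and are called dim. For Usp29, an imprinted gene, the probe was blank on IgG 1 and total RNA 1 and lay between 2.6 and 3.61 on the other arrays, so it was left out of the tests, which required all 4 arrays of a comparison. The remaining 51 members were listed on all 6 arrays. For these the SD of the log2 difference between the arrays of a group was 0.54 for MVH, 0.62 for IgG and 0.39 for total RNA, against 0.47, 0.60 and 0.45 over all probes.

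Marker genes of testis cell types also differed between the precipitates. In the MVH precipitate 4 of 14 round spermatid and acrosome markers were higher than with IgG and 1, Tex101, was lower. All 8 measured Leydig markers had negative differences and 5 of them passed as lower. The summed scaled intensity of the 8 Leydig markers was 2213 and 1794 on the MVH arrays, 4471 and 3849 on the IgG arrays and 2223 and 2959 on the total RNA arrays. For the 14 round spermatid markers it was 81675 and 109374, 69746 and 69490, and 75445 and 96676. Most of the Leydig sum on the MVH arrays came from Cyp2a12, which differed by only -0.11 between the precipitates. It read 1642 and 1257 for MVH, 1312 and 1831 for IgG and 1514 and 1776 for total RNA. The spermatid gene Prm2 lay between 65538 and 83665 on all arrays, near the top of the scale. Of the other germ cell lists, 2 of 13 elongating spermatid markers were higher and 0 lower, 1 of 12 spermatocyte markers was higher and 1 lower, and 1 of 8 spermatogonial markers was higher and 3 lower. Of somatic lists, 2 of 11 Sertoli and 2 of 6 peritubular and vascular markers were lower, and 0 of 5 macrophage and blood markers passed. No marker was listed at 0. The part of these markers in the results that follow was not tested.

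The first comparison asked which member mRNAs differed between the MVH and the IgG precipitates. Of 51 members tested, 7 were higher with MVH, which is 13.7%, while 3.82% of all 21574 probes tested were called higher. The 7 were Usp37, Usp8, Usp16, Usp14, Usp50, Usp2 and Usp17la. One member, Usp53, was lower, which is 1.96% against 4.15% of all probes. Calls are limma adjusted p-values under 0.05, from a fit to all 6 arrays. The median log2 difference of the 51 members was 0.27 and that of all probes 0.07, with 30 members positive and 21 negative. With the values as deposited, where no array is centred, the medians became 0.53 and 0.34, the calls over all probes went from 824 higher and 895 lower to 702 higher and 121 lower, and those over members to 7 higher and 0 lower. With an offset of 4 the members' median was 0.12 and that of all probes 0.02. All probes include unnamed and second probes. With 1 probe per gene symbol, 8 of 51 members were higher and 1 lower, against 748 higher and 762 lower of 15315 probes.

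These calls depend on single arrays, as those of all probes do. Without MVH 2, without total RNA 1 or without total RNA 2 the count of members called higher was 0, without IgG 1 it was 3 (Usp8, Usp16 and Usp37), without MVH 1 it was 4 (those and Usp14) and without IgG 2 it was 5. Without MVH 2 or without either total RNA array, 0 of all probes were called higher as well. Total RNA enters this comparison only by helping to estimate the variance, and with the 4 compared arrays alone the count was also 0.

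Usp37 removes ubiquitin from cyclin A and helps cells into S phase. Its probe (M300008738) read 65.5 and 100.8 after MVH precipitation, 17.4 and 12.1 after IgG precipitation and 27.0 and 18.7 in total RNA. The 3 groups did not overlap, with IgG lowest and MVH far above both. The difference from IgG was 5.60-fold (log2 2.48 ± 0.35 SE with 2 arrays a group, limma adjusted p = 0.0166) and was the largest of any member. Against total RNA it was 1.85 ± 0.35, which did not pass (adjusted p = 0.172).

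Usp8 acts on endosomes, where it frees cargo and the sorting protein STAM from ubiquitin, and in spermatids it has been tied to the forming acrosome. The MVH arrays gave 100.9 and 168.7 for its probe (M400001002), the IgG arrays 25.8 and 35.8 and total RNA 43.3 and 48.0. The 3 groups did not overlap, with IgG lowest and MVH highest. Usp8 was 4.29-fold higher with MVH than with IgG (log2 2.10 ± 0.33, limma adjusted p = 0.0174). The difference from total RNA was 1.52 ± 0.33 (adjusted p = 0.234).

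Usp16 takes ubiquitin from histone H2A. Probe M200012597 read 317.6 and 544.5 after MVH precipitation, 97.8 and 120.0 after IgG precipitation and 86.3 and 67.9 in total RNA. Here the scaled IgG arrays lay above total RNA (as deposited they overlapped it), and MVH lay far above both. Usp16 was 3.84-fold higher with MVH than with IgG (log2 1.94 ± 0.33, limma adjusted p = 0.0198), and its difference from total RNA, 2.44 ± 0.33, was the largest of any member, although it did not pass (adjusted p = 0.104).

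These 3 genes shared a pattern. Usp8, Usp16 and Usp37 were at least 2-fold higher on the lower MVH array than on the highest of the 4 control arrays. That is 3 of 51 members, or 5.88%, against 51 of 21241 probes listed on all arrays, or 0.24%. Counted without a fold limit, both MVH arrays exceeded all 4 control arrays for 13 members, or 25.5%, against 11.4% of probes. Both MVH arrays lay under all 4 control arrays for 2 members, Usp24 and Usp39, or 3.92% against 11.5%. With the values as deposited 4 members were at least 2-fold above (Usp1 was added), or 7.84% against 0.297% of probes. There were 14 above, or 27.5% against 12.7%, and 1, Usp24, below, or 1.96% against 6.18%.

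Usp14 is the protease that docks on the proteasome and trims ubiquitin from its substrates. Its values (probe M300004038) were 25.7 and 64.0 for MVH, 10.7 and 12.5 for IgG and 15.5 and 16.4 for total RNA. The MVH arrays lay far apart, yet both exceeded every control array, and IgG lay below total RNA. The difference from IgG was 3.5-fold (log2 1.81 ± 0.41, limma adjusted p = 0.0351). It was 1.15 without MVH 2 and 2.47 without MVH 1.

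Usp2 is expressed strongly in testis, exists in several isoforms and acts on Mdm2 and cyclin D1 among other targets. Readings of probe M200003187 were 1313 and 1021 on the MVH arrays, 387.4 and 507.0 on the IgG arrays and 479.2 and 619.4 on the total RNA arrays. The control groups overlapped once scaled, and both MVH arrays lay above them. Usp2 was 2.61-fold higher with MVH than with IgG (log2 1.39 ± 0.30, limma adjusted p = 0.0314), and differed from total RNA by 1.09 ± 0.30 (adjusted p = 0.306).

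Usp50, a little-studied member, and Usp17la differed from the 5 genes above in where total RNA lay. For Usp50 (probe M200008491) the arrays read 4893 and 6869 after MVH precipitation, 1428 and 2830 after IgG precipitation and 5188 and 5175 in total RNA. Total RNA lay between the MVH arrays, and the IgG arrays lay below both groups. It was 2.88-fold higher with MVH than with IgG (log2 1.53 ± 0.37, limma adjusted p = 0.0403). Against total RNA the MVH precipitate differed by 0.16 (adjusted p = 0.981) and the IgG precipitate by -1.37 (adjusted p = 0.108). Without IgG 1 the difference between the precipitates was 1.03.

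Usp17la belongs to a group of near-identical genes first found as cytokine-induced deubiquitinases of blood cells. Probe M400004860 gave 30.1 and 23.1 for MVH, 13.7 and 10.1 for IgG and 24.8 and 20.2 for total RNA, so that MVH and total RNA overlapped. The difference between the precipitates was 2.24-fold (log2 1.16 ± 0.30, limma adjusted p = 0.0494), at the edge of the threshold. The related Usp17lc read 23.9 and 30.6, 12.9 and 13.3, and 24.5 and 18.1 on its brighter probe and differed by 1.05 ± 0.29 (adjusted p = 0.0607). Its other probe, with readings from 8.08 to 13.1, differed by 0.27. Usp17lb was dim and differed by 0.38 ± 0.27 (adjusted p = 0.435). Probes of such close copies may each detect RNA of the others, so these values are uncertain as to the gene.

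Usp53, a relative of Usp54 linked to cell junctions, was the member called lower. It was dim, at 2.40 and 2.7 for MVH (probe M200002100), 14.7 and 6.78 for IgG and 5.20 and 2.7 for total RNA. The MVH values lie close to the lowest that the arrays list, so the size of the difference, 3.92-fold (log2 -1.97 ± 0.44, limma adjusted p = 0.0323), is uncertain. It was -1.19 with an offset of 4 before log2, and the call was lost with no centring (-1.71, adjusted p = 0.0795).

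**Figure D1:**
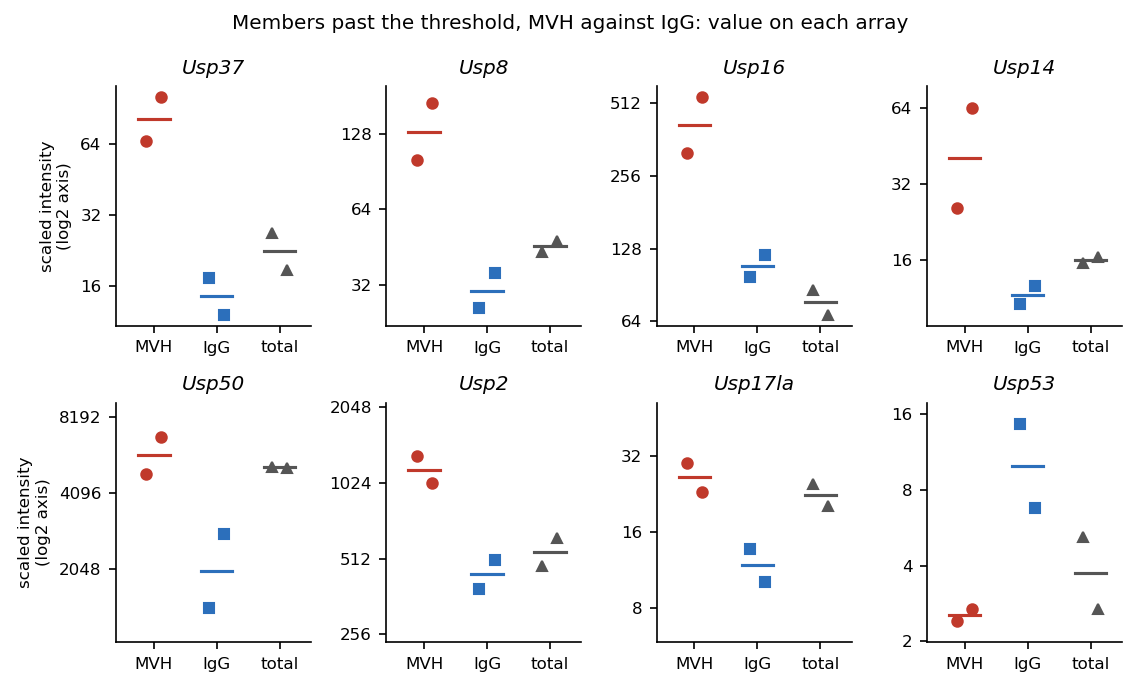
Scaled intensity (log2 axis, own range per panel) of the 8 members called between the MVH and IgG precipitates, with array 1 on the left and array 2 on the right of each group and a bar at the mean of the log2 values. For Usp37, Usp8 and Usp16 both MVH arrays stand at least 2-fold above all control arrays, whereas for Usp50 and Usp17la MVH overlaps total RNA and IgG lies below.

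A further group lay just beyond the threshold. Usp45, which acts in DNA repair, read 91.9 and 136.1 on the MVH arrays, 48.7 and 54.1 on the IgG arrays and 79.3 and 83.1 on the total RNA arrays, a difference between the precipitates of 1.12 ± 0.29 (limma adjusted p = 0.0507). Usp1, the partner of Wdr48 that takes ubiquitin from PCNA and FANCD2, read 757.3 and 1754, 358.5 and 500.9, and 253.1 and 261.4. The MVH arrays for Usp1 lay far apart, but both exceeded every control array, with a difference of 1.44 ± 0.40 from IgG (adjusted p = 0.0626) and 2.16 ± 0.40 from total RNA (adjusted p = 0.172). The difference of Usp1 from IgG was 0.84 without MVH 2 and 2.05 without MVH 1, and that from total RNA 1.56 and 2.77. Each of these genes passed against IgG under 8 of the 17 alternatives run.

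Usp7, which acts on Mdm2 and p53, gave 16.2 and 43.0 after MVH precipitation, 8.20 and 14.9 after IgG precipitation and 8.50 and 9.70 in total RNA. Its difference from IgG was 1.26 ± 0.47 (adjusted p = 0.137), and it passed under none of the 17 alternatives. It was 0.55 without MVH 2 and 1.96 without MVH 1. In the other direction, the large member Usp24 read 46.3 and 50.0 for MVH, 82.2 and 123.5 for IgG and 180.1 and 142.3 for total RNA. The 3 groups were apart, with MVH lowest and total RNA highest. The difference was -1.07 ± 0.30 from IgG (adjusted p = 0.0658) and -1.73 ± 0.30 from total RNA (adjusted p = 0.156), the most negative of any member in that comparison.

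Over all members the MVH and IgG arrays did not overlap for 34 of 51. MVH was above IgG for 21 of them, or 41.2%, against 29.9% of all probes, and below for 13, or 25.5%, against 23.8%. These counts depend on the scaling of IgG 2. With the values as deposited MVH was above IgG for 23 members, or 45.1%, against 37.4% of all probes. MVH was below IgG for 5 (Usp18, Usp24, Usp47, Usp53 and Usp54), or 9.8%, against 11.6%.

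Set against total RNA, the same MVH arrays gave no call among the members. By limma, 0 of 51 members passed, as did only 0.0138% of all probes. At an unadjusted p under 0.05 there were 14 members higher, or 27.5%, against 4.53% of all probes, and 1 lower, Usp24, or 1.96% against 4.41%. The 14 were Usp1, Usp2, Usp6nl, Usp7, Usp8, Usp11, Usp14, Usp16, Usp19, Usp25, Usp32, Usp37, Usp44 and Pan2. The median of the members was 0.21 and that of all probes -0.02, with 39 members positive and 12 negative. Usp16, Usp1, Usp37 and Usp24 passed in this comparison when the dimmest 25% of probes were left out or an offset of 4 was added, and these with Usp8 under a variance trend. Calls over all probes rose as well, from 1 higher and 2 lower to 100 and 23 of 17559 without the dimmest 25%. They were 72 and 20 of 21793 with the offset, and 132 and 48 with the variance trend.

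In the third comparison, of the IgG precipitate with total RNA, 0 of 51 members passed by limma, as did only 0.00934% of all probes. At an unadjusted p under 0.05 there were 6 higher (Usp5, Usp19, Usp34, Usp38, Usp53 and Usp54), or 11.8% against 9.35% of probes. The 5 lower (Usp3, Usp17la, Usp17lc, Usp30 and Usp50) made up 9.8% against 8.86%. These shares lie near the background. The members' median was 0.15 and that of all probes -0.10. With no centring they became -0.11 and -0.37, so the sign of the members' median depends on the scaling.

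**Figure D2:**
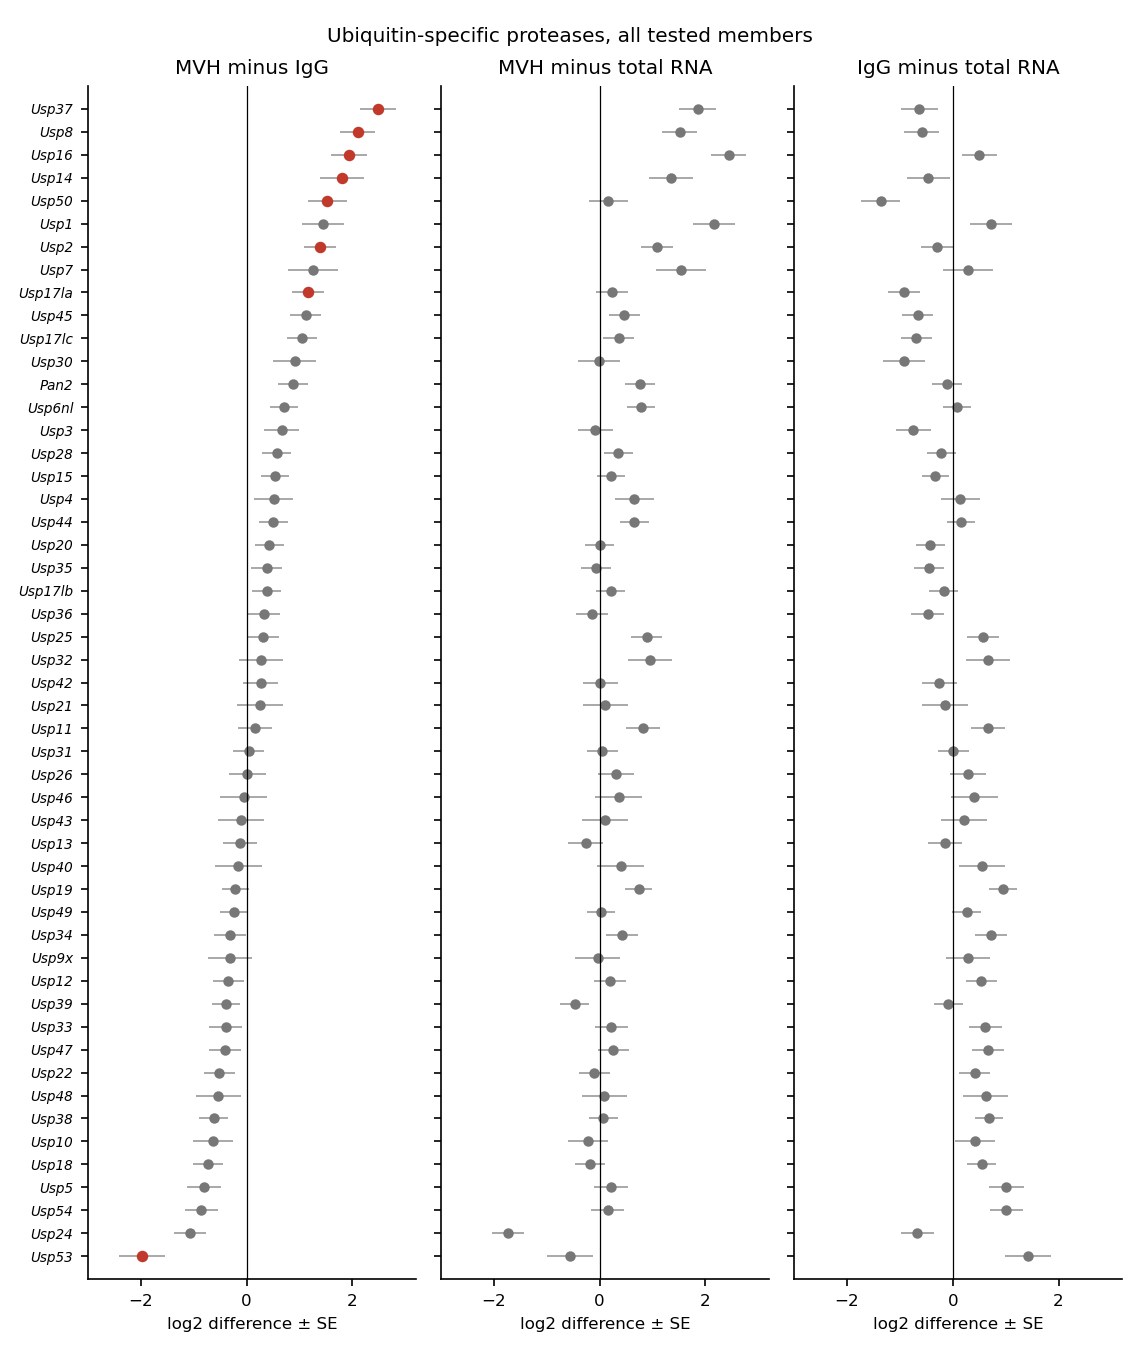
Log2 difference with its SE for the 51 tested members in the 3 comparisons, which share arrays, in the order of the difference between MVH and IgG; red points have a limma adjusted p under 0.05. Red points appear only in the first panel, 7 to the right of 0 and Usp53 to the left, and Usp16 and Usp1 lie farthest to the right in the second.

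By role, the enzymes of chromatin had 1 of 7 measured members higher than with IgG, Usp16, and 0 lower, with a median of 0.33. Usp3, which also acts on H2A, read 216.1 and 334.0 on the MVH arrays, 137.6 and 208.0 on the IgG arrays and 275.2 and 294.2 on the total RNA arrays. Usp44, a regulator of the spindle checkpoint and of H2B, read 1340 and 1223 after MVH precipitation, 1004 and 809 after IgG precipitation and 830 and 794 in total RNA. Both MVH arrays exceeded the controls for Usp44, but its difference of 0.51 ± 0.27 did not pass (adjusted p = 0.280). Usp49, another H2B enzyme, differed by -0.24, Usp21 by 0.25 and the dim Usp36 by 0.33. Usp22, the protease of the SAGA complex, was dim, at 2.80 to 4.80 on all arrays, and differed by -0.51.

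Of 6 members of DNA repair and replication, 0 passed against IgG, and all 6 were positive against total RNA, with a median of 0.41. Most members were positive in that comparison, 39 of 51, with a median of 0.21. Besides Usp1 and Usp45 the 6 were Usp28, Usp47, Usp48 and the dim Usp11. Usp28 read 25.0 and 28.2 for MVH, 16.4 and 19.5 for IgG and 19.1 and 22.7 for total RNA, a difference from IgG of 0.57 ± 0.27. Usp47 lay at 1657 and 1771, 1922 and 2689, and 1265 and 1620, a difference of -0.41 from IgG and 0.26 from total RNA, neither past the threshold. Usp11, whose probe read 6.20 and 5.20 on the MVH arrays, 6.20 and 4.18 on the IgG arrays and 3.8 and 2.7 on the total RNA arrays, differed by 0.16 from IgG and 0.83 from total RNA. Usp48 had 1 high reading, 31.7 on IgG 2, against 12 to 14 on the other arrays.

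Of the enzymes tied to p53, Usp2 passed and Usp7 and Usp10 did not. Usp10, which also binds the stress granule protein G3bp1, read 17.8 and 26.3 after MVH precipitation, 42.2 and 26.8 after IgG precipitation and 19.3 and 32.7 in total RNA. Around the proteasome, Usp14 was higher while Usp5, which takes apart free ubiquitin chains, went the other way in value. Its readings were 70.8 and 65.6 for MVH, 157.7 and 89.6 for IgG and 55.5 and 62.6 for total RNA, so that IgG stood above both other groups only after scaling, since IgG 2 was deposited at 62.1. The difference between the precipitates was -0.80 ± 0.33 (adjusted p = 0.163). Usp13, its relative, was dim and differed by -0.12.

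Among 7 measured members listed under endosomes, membranes and organelles, Usp8 and Usp50 were higher than with IgG and 0 were lower. Usp50 is little studied, so its place in this list is uncertain. Usp6nl, the GTPase-activating protein, read 137.0 and 160.8 on the MVH arrays, 95.4 and 86.5 on the IgG arrays and 88.8 and 83.4 on the total RNA arrays. Its MVH arrays lay above all controls, by 0.71 ± 0.27 over IgG (adjusted p = 0.136) and 0.79 ± 0.27 over total RNA (adjusted p = 0.411). Usp30, the protease of the mitochondrial surface, differed by 0.91 ± 0.40 (adjusted p = 0.198), with 22 and 14 against 13.7 and 6.35. Usp19, anchored in the endoplasmic reticulum, read 48.3 and 52.9 after MVH precipitation, 58.8 and 58.1 after IgG precipitation and 28.9 and 31.8 in total RNA, so that both precipitates lay above total RNA, by 0.74 (adjusted p = 0.435) and 0.95 (adjusted p = 0.113).

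Of the 4 measured members tied to splicing and RNA, 0 passed in any comparison. Pan2, a subunit of the deadenylase that shortens poly(A) tails, read 43.3 and 50.1 for MVH, 29.6 and 21.8 for IgG and 25.3 and 29.8 for total RNA. It differed by 0.88 ± 0.29 from IgG (adjusted p = 0.0967). Usp39, a spliceosome protein without protease activity, read 833 and 921 on the MVH arrays, 1264 and 1046 on the IgG arrays and 1209 and 1224 on the total RNA arrays. Both MVH arrays were under all controls once scaled (IgG 2 was deposited at 725), but the differences of -0.39 from IgG and -0.47 from total RNA did not pass. Usp15 read 102.4 and 99.9 after MVH precipitation, 73.0 and 66.1 after IgG precipitation and 84.1 and 90.4 in total RNA, 3 groups apart with a difference from IgG of 0.54 (adjusted p = 0.233). Usp4, which acts on the splicing factor Prp3, read 660.2 on MVH 2 and between 266.1 and 354.3 on the 5 other arrays.

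A mixed group held Usp26 and Usp9x together with Usp35, Usp37, Usp38 and Usp42. Of these 6 tested members 1 was higher, Usp37, described above for its part in S phase, and 0 were lower. Usp26, an X-linked gene of testis, was dim, at 5.48 to 10.1 on all arrays, and differed by 0.02 ± 0.35 from IgG. Usp9x, also X-linked, was dim at 4.00 to 9.95 and differed by -0.32. Usp42 differed by 0.27, Usp35 by 0.38 and Usp38 by -0.62, none past the threshold. Usp38 read 91.9 and 115.2 for MVH, 169.0 and 147.5 for IgG and 95.4 and 101.0 for total RNA. Usp25 read 2210 and 2871 on the MVH arrays, 1732 and 2362 on the IgG arrays and 1273 and 1457 on the total RNA arrays, so that the precipitates overlapped once scaled and both stood above total RNA. Usp18, which removes the ubiquitin-like ISG15, read 8.40 and 10.5 for MVH, 15.5 and 15.7 for IgG and 12.2 and 9.40 for total RNA. IgG stood above MVH, and above total RNA only once scaled. The difference of MVH from IgG was -0.73 ± 0.28 (adjusted p = 0.144). The 6 members placed in no role group gave 0 calls, with a median of -0.13. Besides Usp24 these were Usp31, Usp32, Usp34, Usp40 and the dim Usp43, with differences from IgG of 0.04, 0.28, -0.31, -0.15 and -0.11. For Usp32 the readings were 82.5 and 142.8 for MVH, 60.7 and 132.0 for IgG and 52.7 and 59.8 for total RNA, so that the precipitates overlapped above total RNA. Usp43 read 1.70 and 4.10 in total RNA.

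Related members did not always lie side by side, although differences between genes were not tested. Usp16 was higher with MVH, and its relative Usp45 had a value of the same sign that just missed the threshold. Usp7 differed by 1.26 and Usp47 by -0.41. Usp44 differed by 0.51 and Usp49 by -0.24, Usp20 by 0.43 and the dim Usp33 by -0.39. Usp4, Usp11 and Usp15 differed by 0.51, 0.16 and 0.54. Usp12 and Usp46, which both work with Wdr48, differed by -0.34 and -0.05, and Wdr48 itself by -0.82 ± 0.33 (adjusted p = 0.164), while Usp1, which also pairs with Wdr48, had a positive value. The arrays of a group lay far apart for Usp46, at 55.4 and 137.2 for MVH and 69.6 and 117.3 for IgG, against 69.8 and 66.3 for total RNA. Usp12 read 52 and 49 for MVH and 67.2 and 61.2 for IgG, which did not overlap once scaled, with total RNA at 35.6 and 54.7. Usp20, which acts on HIF and on receptors of the cell surface, read 171.4 and 141.7 for MVH and 124.9 and 107.0 for IgG, and its total RNA values of 169.3 and 142.8 nearly matched MVH.

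**Figure D3:**
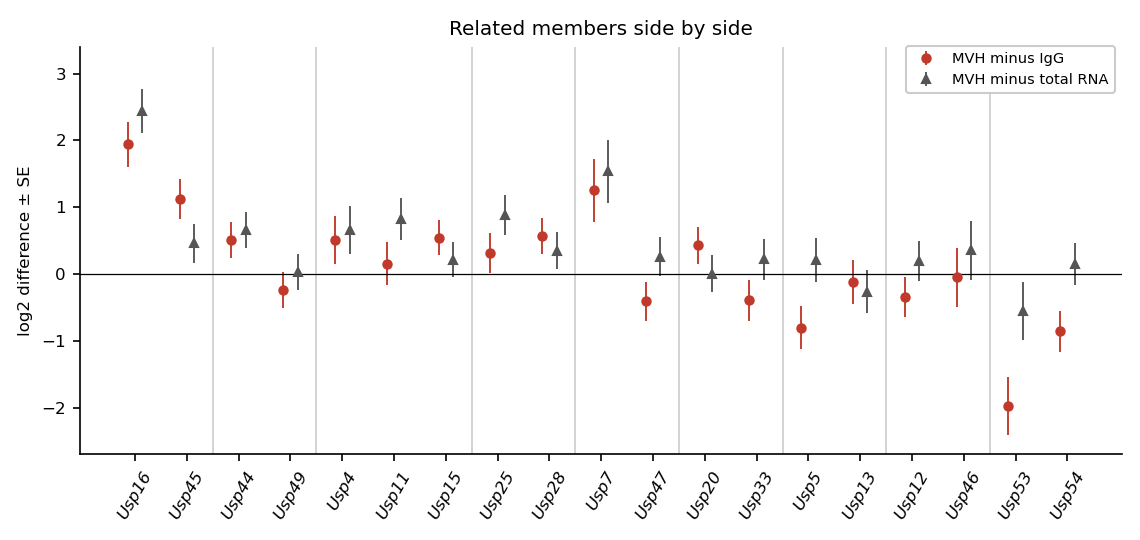
Log2 difference with its SE of related members, grouped between grey lines, for MVH minus IgG (red) and MVH minus total RNA (grey), which share the MVH arrays. Usp16 and Usp7 lie above 1 in both comparisons while Usp47 lies at -0.41 and 0.26, and Usp53 is the lowest.

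Usp54 and Pan2 have a second probe too. The brighter probe of Usp54 read 50.8 and 69.7 after MVH precipitation, 99.2 and 117.5 after IgG precipitation and 44.3 and 64.5 in total RNA, a difference from IgG of -0.86 ± 0.31 (adjusted p = 0.126). Its dim second probe, listed under an older name, had the opposite sign, at 5.60 and 7.20 against 2.6 and 3.61 (1.05 ± 0.30, adjusted p = 0.0661). The second probe of Pan2 was blank on MVH 1 and lay between 2.7 and 4.10 elsewhere, and between IgG and total RNA it differed by -0.11, as did the main probe.

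In RefSeq some members overlap another gene, and the strand of the probes is not given in the sources used here. Usp37 overlaps Cnot9, Plcd4 and Vil1, whose own probes differed by 0.69, 0.45 and 0.16 between the precipitates against 2.48 for Usp37. Usp16 overlaps Cct8, at 0.53 against 1.94, and Usp14 overlaps Thoc1, at -0.63 against 1.81. None of these neighbours passed. Usp8 and Usp50, both called higher, are adjacent genes, and so are Usp17la and Usp17lb.

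The other genes of the ubiquitin pathway were taken from 4 lists. Of 39 genes in a mixed list of other deubiquitinases and related proteins, 1 was higher with MVH than with IgG and 1 lower. Their median was -0.22. Cops5, the protease subunit of the COP9 signalosome, read 2885 and 4592 for MVH, 1232 and 852 for IgG and 1797 and 2348 for total RNA (1.83 ± 0.34, limma adjusted p = 0.0226). Uchl4 was the lower one (-1.71 ± 0.27, adjusted p = 0.0174). Of 35 E1 and E2 enzymes, 2 were higher and 2 lower, with a median of 0.09. The testis E2 gene Ube2d2b differed by 1.47 and Ube2j1, an E2 of the endoplasmic reticulum, by 1.06, while Sae1, of the SUMO E1, differed by -1.26 and Ube2z by -1.85.

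Of 21 tested partners of these proteases, 0 were higher and 3 lower, with a median of 0.03. The 3 were Sart3, which brings Usp4 and Usp15 to the spliceosome (-1.61 ± 0.30, adjusted p = 0.0222), the p53 ligase gene Mdm2 (-1.21 ± 0.26, adjusted p = 0.0319) and the export receptor gene Xpo1 (-1.27 ± 0.31, adjusted p = 0.0424). Mdm2 read 212.2 and 200.4 on the MVH arrays, 507.0 and 448.7 on the IgG arrays and 195.3 and 222.4 on the total RNA arrays, so that IgG stood apart from both other groups. The endosomal partners of Usp8 did not pass, with Stam at -0.19, Stam2 at -0.05 and Hgs at 0.84. Of 6 measured genes for ubiquitin-like proteins, 0 passed, with a median of -0.09. In the comparisons with total RNA 0 genes of these 4 lists passed.

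**Figure D4:**
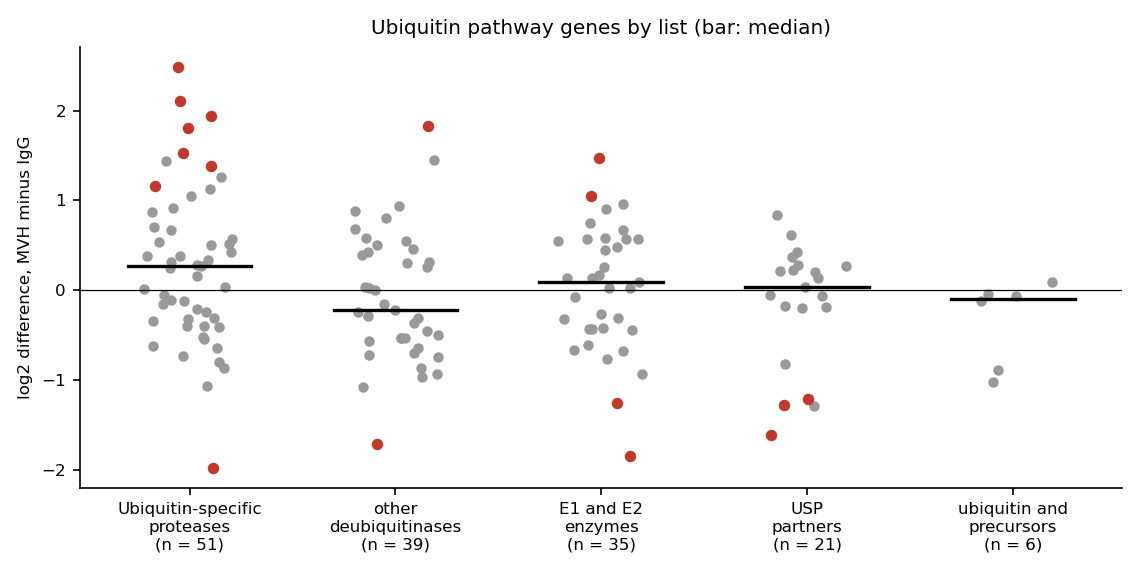
Log2 difference between the MVH and IgG precipitates for each tested gene of the Usp family and of 4 other lists of the ubiquitin pathway; points are spread sideways at random, bars are medians and red points have a limma adjusted p under 0.05. The Usp family has 7 red points above 0 and 1 below. Medians run from -0.22 for the mixed list of other deubiquitinases to 0.27 for the Usp family.

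Sizes varied less than calls, in part by design. Many of the 17 alternatives changed only the variance model, the block, the probes fitted or the use of total RNA. Those left the differences of the called members as they were. Only other centring or normalization, the offset, or leaving out an MVH or IgG array could move them. Across the alternatives none of the 8 called members changed sign between the precipitates. The difference ranged from 2.16 to 2.80 for Usp37, from 1.73 to 2.47 for Usp8, from 1.55 to 2.33 for Usp16 and from 1.19 to 1.65 for Usp2. Ranges were wider for Usp14 (1.15 to 2.47), Usp50 (1.03 to 2.02) and Usp17la (0.90 to 1.43). Usp37, Usp8 and Usp16 passed under 13 of the 17, Usp2, Usp14 and Usp50 under 11 and Usp17la under 9. Usp53 passed under 9 of the 16 in which its probe was tested. Their limma adjusted p-values ranged up to 0.103 for Usp37, 0.104 for Usp8 and 0.113 for Usp16, each without MVH 2.

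**Figure D5:**
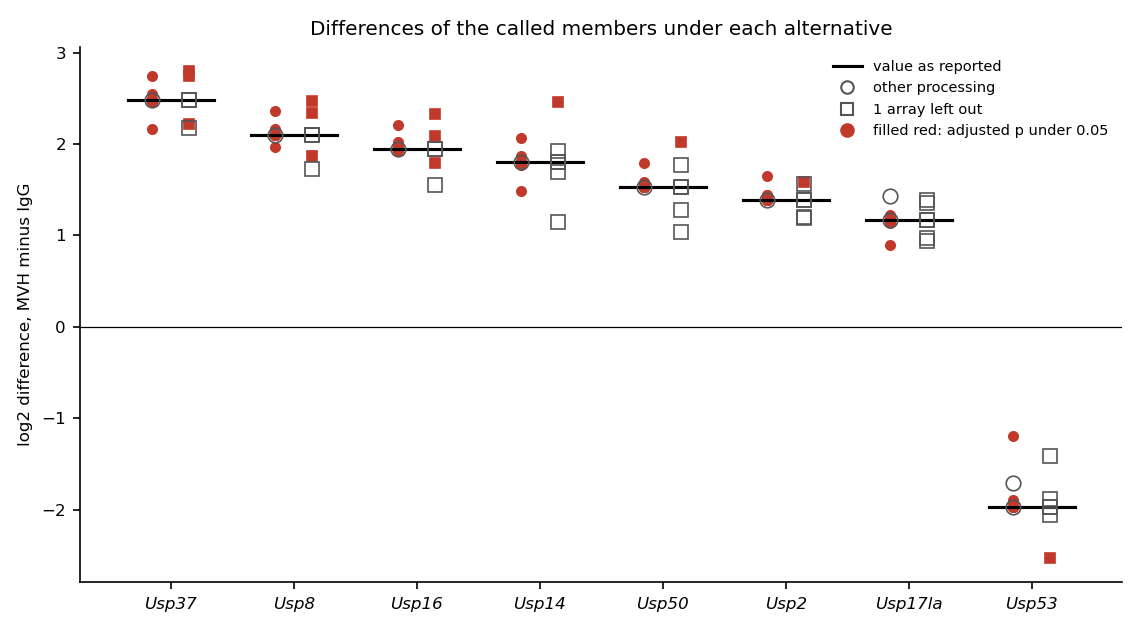
Log2 difference between the MVH and IgG precipitates of the 8 called members as reported (black bar), under other processing (circles) and with 1 array left out (squares); filled red symbols have a limma adjusted p under 0.05. Open symbols at the level of the bar are the fits to the 4 compared arrays or without 1 total RNA array, which leave the difference as it is and lose the call.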

How the data were processed

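Each of 6 RNA samples was copied into aminoallyl aRNA, labelled with Cy5 and put on its own array, per the labels' protocols (part of that text concerns another kind of sample). The authors deposited the intensity of each of 23473 probes on a linear scale. What scanner, background correction and scaling were used, and why cells are blank, is not given in the sources used here. Median intensity was 30 on 5 arrays and 20.8 on IgG 2. Arrays listed 22090 to 22965 probes. The number of arrays limits the precision.

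Symbols came from the platform annotation, updated through RefSeq synonyms of GRCm38.p6 (12622 current, 3947 updated, 62 not matched). Log2 intensities were centred on each array's median and fitted over all probes by lmFit and eBayes of limma 3.58.1 (R 4.3.3, 6 arrays). A probe was tested where all 4 arrays of a contrast were listed, with Benjamini-Hochberg adjustment over all of them and a threshold of 0.05. The fit was also run on data simulated from its own variance model with known changes added. That run cannot show how far the calls depend on single arrays. Plots used matplotlib 3.10.9.

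Members and lists were chosen with earlier results of these data known. All members are named; values on every array are given for called members and those that roles or relations single out. From other lists at most 4 called genes are named, plus partners chosen after their values were seen. Alternatives changed the centring, offset, probes, variance model, block, and arrays fitted.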

Additional observations from a re-analysis of the deposited data

How the results depend on the processing

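The count of members higher with MVH than with IgG, 7, was 0 with only the 4 arrays compared and 11 without the dimmest 25% of probes, and ranged from 0 to 5 with 1 array left out. A group left with 1 array is assumed to vary like the others. The count of lower members, 1, was 0 with no centring and with the 4 arrays alone, 2 with an offset, with a variance trend and over probes present on all 6 arrays, and ranged from 0 to 1 with 1 array left out. Without the dimmest 25% of probes, where Usp53 was not tested, it was 1, Usp24. Calls over all probes between the precipitates also rose when these dim probes were dropped. They went from 824 higher and 895 lower of 21574 to 1492 and 1624 of 17549, so the rise from 7 to 11 was not particular to the members. Of members against total RNA, 0 passed with MVH. This became 1 with no centring or probes listed on all 6 arrays, 4 with an offset or without the dimmest 25% of probes, and 5 with a variance trend. Over all probes, 1 higher and 2 lower became 14 and 5 with no centring, and 23 and 7 over probes listed on all 6 arrays. They became 72 and 20 with an offset, 100 and 23 without the dimmest 25%, and 132 and 48 with a variance trend. Between IgG and total RNA 0 members passed, against 1 with an offset or without the dimmest 25% of probes and 2 with a variance trend. Over all probes, 2 higher and 0 lower became 666 and 421 with an offset. They became 773 and 410 without the dimmest 25%, and 798 and 455 with a variance trend. The cause was not tested. With the replicate block the counts were 9 higher (Usp1, limma adjusted p = 0.0352, and Usp45, limma adjusted p = 0.0398, were added) and 1 lower, and 0 in both comparisons with total RNA. Over all probes the block gave 1100 higher and 1163 lower between the precipitates. Against total RNA it gave 3 and 1 for MVH, and 123 and 27 for IgG. The deviations of same-numbered arrays correlated at 0.16, 0.16 and 0.10, and nothing in the labels says that a number marks a shared lysate. Of the 51 members, 36 kept their sign between the precipitates under every alternative in which they were tested and 15 did not. Only 42 members were tested without the dimmest 25% of probes. Alternatives that changed only the variance model, the block or the use of total RNA could not change a sign. Dim probes, 11 of 52 members, limit what could be seen.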
